A study of Rattus norvegicus with 36 samples.

Results

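Colon tumors of Pirc rats fed spinach (PST, 3 libraries) were compared with colonic mucosa, labelled normal, of wild-type rats fed the same diet (WSN, 3 libraries) by RNA-seq, using 6 of the 18 RNA-seq libraries of the study. The 6 libraries were taken by their labels, which give the genotype, the tissue state and the diet, so no measured value entered the choice. Pirc rats are F344/NTac rats with the germline allele Apc am1137, a nonsense mutation carried in every cell, and they develop polyps of the colon and small intestine without a carcinogen. Wild-type rats were F344 without that allele. All rats were male, and both groups ate AIN93 diet with 10% by weight freeze-dried baby spinach from 4 weeks of age until the study ended at 30 weeks. The other groups used here were PSN (normal-looking mucosa of the spinach-fed Pirc rats, matched to the tumors by animal), PCT (Pirc tumors on AIN93 without spinach), PCN (normal-looking mucosa matched to PCT) and WCN (wild-type mucosa on AIN93 without spinach). Each library was 1 of 3 biological replicates, and poly(A) RNA was read in pairs of 75 bases.

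PST differed from WSN both in carrying a tumor and in genotype, and these cannot be told apart within the 2 groups. The normal-looking tissue of the Pirc rats (PSN) shares the genotype and lacks the tumor, so its values are given for some of the genes and lists. The levels are RPKM, read counts scaled to the length of the gene and to the mapped reads of the library. Relative depth, estimated from the spacing of the lowest values because RPKM holds no totals, was 0.917 to 1.27 in PST and 0.892 to 1.378 in WSN, relative to the median library. Pearson correlations of log2(RPKM + 0.5) were 0.938 to 0.966 among PST libraries, 0.956 to 0.967 among WSN libraries and 0.834 to 0.875 between a PST and a WSN library.

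In the healthy colon, Wnt ligands keep stem cells dividing at the crypt base, and cells that move up the crypt lose that signal and mature into absorptive colonocytes, goblet cells, endocrine cells and tuft cells. Apc is part of the complex that marks β-catenin for destruction. When Apc is lost, β-catenin accumulates, joins TCF/LEF proteins at the promoters of Wnt target genes and keeps them active without a ligand. Loss of APC is the first step of most human colon adenomas.

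The mutated gene was measured first. Apc had 18.5, 27.3 and 17.0 RPKM in PST, against 10.8, 11.2 and 7.78 RPKM in WSN. The groups did not overlap, and the log2 fold change was 1.03 ± 0.18, adjusted p = 3.61e-04 (SE, limma). Normal-looking Pirc colon stood at 19.0, 19.1 and 15.1 RPKM, also above every WSN library. A nonsense allele is still transcribed in part, so the RNA level does not check the genotype labels.

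Of 11544 genes tested (those with 1 RPKM or more in 3 or more libraries), 5072 were called between PST and WSN at an adjusted p under 0.05, which is 43.9%. Of these, 2797 genes (24.2% of those tested) rose in PST and 2275 (19.7%) fell. Genes whose PST and WSN libraries did not overlap numbered 5543 (48.0%), and 2497 (21.6%) had a log2 fold change of at least 1 in size. The median over all genes tested was 0.04, so changes are read against a center close to 0. These shares are the background for every count below, and a list whose shares are near them gives no result about its members. When only the PST and WSN libraries were fitted, 3375 genes were called. RNA came from homogenised tissue, so fewer cells of a type and less RNA per cell cannot be told apart in any of the differences that follow.

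**Figure D1:**
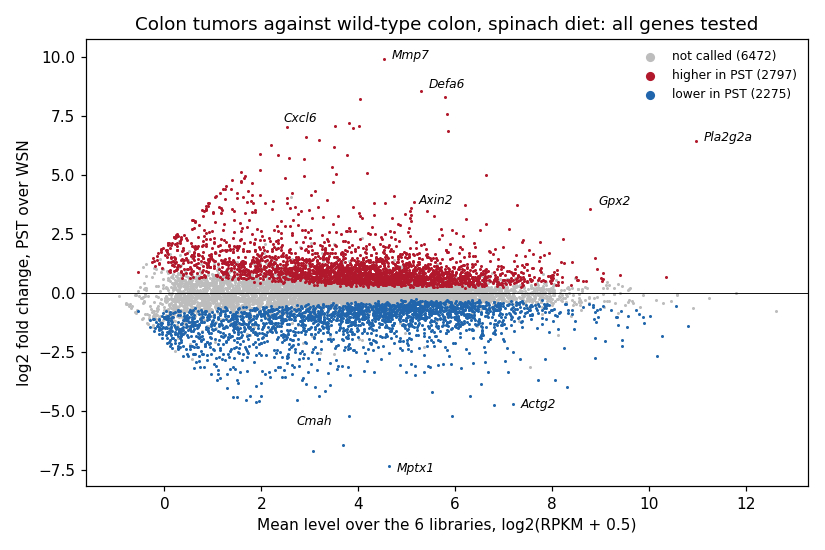
Log2 fold change of PST over WSN (vertical axis) against the mean level over the 6 libraries in log2(RPKM + 0.5) (horizontal axis), 1 point for each of 11544 genes tested; red points rose, blue points fell and grey points were not called. The 2797 rises reach a log2 fold change of 9.93 (Mmp7) and the 2275 falls reach -7.30 (Mptx1).

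Among genes that were called, did not overlap and averaged 5 RPKM or more in the higher group, the largest rise was that of Mmp7 (matrilysin), a secreted protease that Wnt signaling turns on in intestinal tumors and that processes defensins in the mouse intestine. Mmp7 had 2717, 220.2 and 637 RPKM in PST, against 0.42, 0.11 and 0.24 RPKM in WSN. It was close to silent in wild-type colon and varied widely among the 3 tumors, with PST replicate 1 the highest. The log2 fold change was 9.93 ± 1.04, adjusted p = 1.09e-05. The next largest rise was that of the defensin Defa6, and 5 genes of the alpha-defensin family (Defa6, Defa24, Defal1, Defa8 and Defa9) were among the 15 leading rises. Pla2g2a, the secreted phospholipase A2 of Paneth cells, was the most abundant of the 15, with 23987, 20068 and 13950.3 RPKM in PST, against 555, 134 and 136 RPKM in WSN. WSN replicate 1 was the highest of the wild-type libraries and still far below every tumor, and the log2 fold change was 6.44 ± 0.67, adjusted p = 8.84e-06.

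Transcription factor T (brachyury), which marks mesoderm in the embryo, was listed at 0 in all 3 WSN libraries and had 36.6, 73.8 and 109 RPKM in PST. The groups therefore have no fold, and only the fitted log2 difference of 7.07 at the pseudocount used can be given. Aldh1a3, which makes retinoic acid, had 305, 71.9 and 210.2 RPKM in PST, against 0.67, 1.13 and 0.69 RPKM in WSN. Gfra4, a co-receptor of the RET kinase, had 114, 41.9 and 87.0 RPKM in PST, against 0.43, 0.44 and 0 RPKM in WSN, and the squamous envelope gene Sprr1a had 31.6, 29.2 and 68.8 RPKM in PST, against 0, 0.07 and 0 RPKM in WSN. These genes separated the groups completely, as the naming rule required, while Reg3g, Reg3b and Lgals2 did so with a wide spread among the tumors. Reg3b, a lectin of epithelial defense, had 2424, 17.1 and 157 RPKM in PST, against 0.88, 0.57 and 1.35 RPKM in WSN, and Reg3g had 1251, 81.4 and 47.4 RPKM in PST, against 0.22, 0 and 3.66 RPKM in WSN. The galactoside-binding lectin Lgals2 had 409, 18.3 and 87.2 RPKM in PST, against 0.14, 0.83 and 0.53 RPKM in WSN. PST replicate 1 was the highest for all 3 of these lectins, and the call of Reg3b was lost without PST replicate 1 (log2 fold change 5.24, adjusted p = 0.0785). Single libraries without tumor also held Reg3g and Reg3b. Reg3g had 162.9 RPKM in PSN replicate 1 and 59.1 RPKM in WCN replicate 3, and Reg3b had 99.3 and 41.9 RPKM there. On control diet neither was called (PCT over WCN, adjusted p = 0.254 for Reg3g and 0.0878 for Reg3b, limma).

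The leading falls were of another kind. Mptx1, a mucosal pentraxin, had 0.27, 1.14 and 5.64 RPKM in PST, against 1047, 572 and 49.6 RPKM in WSN. The goblet cell protein Retnlb had 0.12, 0.98 and 0.12 RPKM in PST, against 113, 95.9 and 53.8 RPKM in WSN, and its relative Retnla had 1.69, 1.17 and 0.25 RPKM in PST, against 132, 117 and 109 RPKM in WSN. All 3 were nearly absent from the tumors, and their standard errors were large, at 1.39, 1.48 and 1.64 on the log2 scale. Cmah, the enzyme that turns one sialic acid (Neu5Ac) into another (Neu5Gc), was among the leading falls with closely matched libraries. It had 1.84, 1.86 and 1.75 RPKM in PST, against 64.9, 91.2 and 99.9 RPKM in WSN, a log2 fold change of -5.19 ± 0.43, adjusted p = 1.83e-06. The leading falls also held 4 smooth muscle genes (Cnn1, Des, Actg2 and Pgm5), the peptide genes Nmu, Vip and Sst, the tachykinin receptor Tacr2, the neuronal gene Stmn2 and the precursor entry Mir145. Mir145 had 4.16, 0.96 and 0.72 RPKM in PST, against 84.7, 31.3 and 25.8 RPKM in WSN in this poly(A) table, which measures precursor transcripts and not the mature miRNA.

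**Figure D2:**
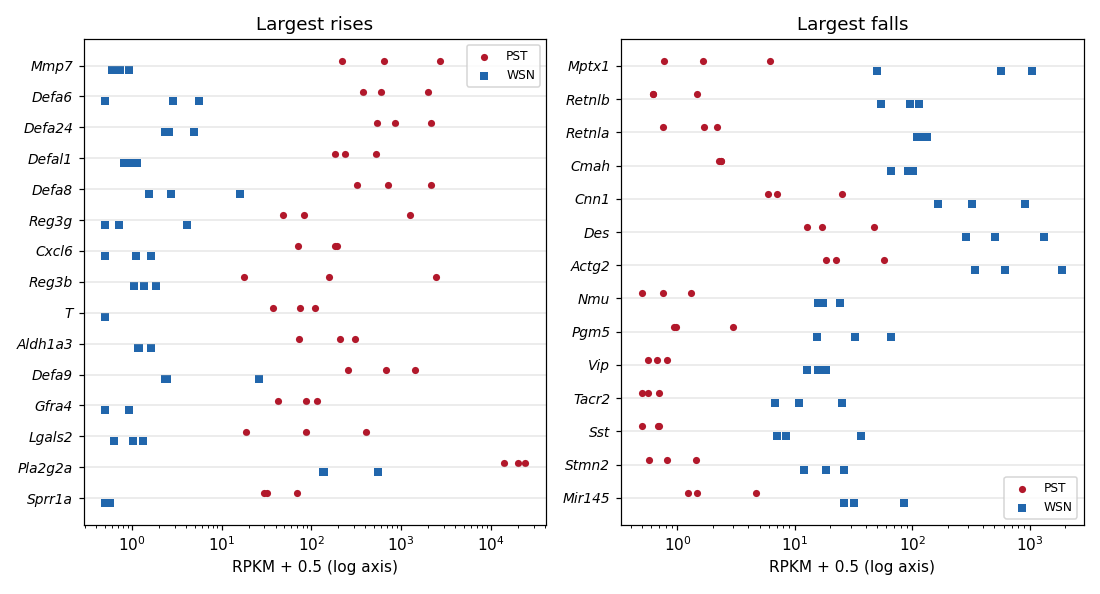
Level of each of the 15 largest rises (left panel) and 14 of the 15 largest falls (right panel) in every library, as RPKM + 0.5 on a log axis; red circles are the 3 PST libraries and blue squares the 3 WSN libraries. Every gene separates the groups because the genes were chosen for no overlap. Pla2g2a reaches 23987, 20068 and 13950.3 RPKM in PST, and T is at 0 in the 3 WSN libraries.

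Most of the listed Wnt targets rose in PST. Among them, 21 of 27 tested genes rose and 1 fell, with a median log2 fold change of 2.14 (0.04 over all genes tested). The TCF/LEF site (CTTTGAT or CTTTGAA, either strand) was looked for in the stretch from 250 bases before to 50 bases after each RefSeq start, where 15 of these genes had an entry. The site was present in 5 of them (33.3% of their windows), against 8.73% of all 33469 windows. All 5 rose in PST, as did 21 of 27 in the list, so the rise cannot be tied to the site. The list was chosen as Wnt targets, so a raised share of sites is no result of these data. The matches are shown because they are the sequence that TCF/LEF proteins, which β-catenin joins, bind in this pathway. A match of letters is no measure of binding here.
Capitals mark the CTTTGAT or CTTTGAA match in sense direction, or its reverse complement; each line is the promoter strand, 5′ to 3′, build GRCr8.
Axin2, chr10:94398535-94398675, plus strand: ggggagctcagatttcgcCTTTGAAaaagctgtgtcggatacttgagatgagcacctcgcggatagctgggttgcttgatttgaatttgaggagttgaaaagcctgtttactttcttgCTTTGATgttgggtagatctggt
Sp5, chr3:75682537-75682617, plus strand: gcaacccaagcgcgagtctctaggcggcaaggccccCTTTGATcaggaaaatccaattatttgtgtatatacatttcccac
Nkd1, chr19:34722946-34723026, minus strand: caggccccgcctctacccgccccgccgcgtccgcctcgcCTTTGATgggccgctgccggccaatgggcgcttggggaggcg
Cd44, chr3:109699425-109699504, minus strand: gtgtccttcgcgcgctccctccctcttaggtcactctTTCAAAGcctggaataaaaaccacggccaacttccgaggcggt
Mmp7, chr8:13132983-13133042, plus strand: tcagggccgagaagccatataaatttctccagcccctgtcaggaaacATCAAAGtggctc

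Axin2 and Nkd1 are feedback inhibitors that Wnt signaling switches on against itself. Axin2, whose promoter holds a pair of matches, had 148, 103 and 109 RPKM in PST, against 10.4, 9.56 and 7.88 RPKM in WSN, a log2 fold change of 3.61 ± 0.34, adjusted p = 3.88e-06. Nkd1 had 124, 55.4 and 138 RPKM in PST, against 14.6, 12.4 and 8.10 RPKM in WSN. The 3 tumors agreed for Axin2, and PST replicate 2 was the lowest for both. Notum, a secreted enzyme that removes the lipid of Wnt ligands, had 54.2, 6.55 and 72.4 RPKM in PST, against 0.04, 0 and 0 RPKM in WSN. Wif1, which binds Wnt ligands outside the cell, had 33.1, 10.9 and 74.5 RPKM in PST, against 0.60, 0.62 and 0.41 RPKM in WSN, and the transcription factor Sp5 had 45.8, 4.42 and 61.7 RPKM in PST, against 0.20, 0.16 and 0.08 RPKM in WSN. PST replicate 2 held 6.55 to 10.9 RPKM of Notum and Wif1 and 4.42 RPKM of Sp5, well under the other tumors, and still above every WSN library.

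The growth regulator Myc was uniform within both groups, with 144, 173 and 146 RPKM in PST, against 27.6, 23.4 and 19.9 RPKM in WSN, and a log2 fold change of 2.69 ± 0.20, adjusted p = 4.58e-07. The adhesion receptor Cd44 had 337, 291 and 217 RPKM in PST, against 56.2, 25.96 and 30.4 RPKM in WSN, and the E3 ligase Rnf43, which clears Wnt receptors from the surface, had 85.5, 79.0 and 78.6 RPKM in PST, against 23.5, 23.7 and 17.4 RPKM in WSN. Cyclin D1 (Ccnd1), by contrast, moved little, with 214, 295 and 327 RPKM in PST, against 209, 153 and 199 RPKM in WSN and a log2 fold change of 0.56 ± 0.22, adjusted p = 0.0446. The call of Ccnd1 was lost without PST replicate 2, PST replicate 3, WSN replicate 2 or WSN replicate 3 (log2 fold change 0.42 to 0.62, adjusted p up to 0.168). Nkd2, a relative of Nkd1, was the single member that fell, to 1.58, 1.54 and 1.49 RPKM in PST, against 8.60, 6.24 and 4.26 RPKM in WSN.

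Genes of the destruction complex and its partners moved in both directions, in that 10 of 19 tested genes rose and 4 fell. β-catenin itself (Ctnnb1) had 282, 219 and 257 RPKM in PST, against 112, 139.9 and 103 RPKM in WSN, a log2 fold change of 1.10 ± 0.16, adjusted p = 8.16e-05. The kinases Gsk3b and Csnk1a1, which phosphorylate β-catenin, rose with log2 fold changes of 1.32 and 0.85. Lef1, the TCF family member that activates transcription, had 10.1, 3.67 and 9.03 RPKM in PST, against 0.36, 0.75 and 1.09 RPKM in WSN. Its relatives Tcf7l1 and Tcf7l2, of which Tcf7l1 is mainly a repressor, fell. Tcf7l1 had 4.43, 4.51 and 3.69 RPKM in PST, against 13.3, 11.7 and 9.66 RPKM in WSN, and Tcf7l2 had a log2 fold change of -0.54. The call of Tcf7l2 was lost without PST replicate 1, WSN replicate 2 or WSN replicate 3 (log2 fold change -0.46 to -0.44, adjusted p up to 0.0733).

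Among stem cell markers, 8 of 12 tested genes rose and 1 fell, with a median of 1.80. Lgr5, the receptor that marks crypt base stem cells, had 11.8, 22.5 and 55.0 RPKM in PST, against 1.27, 7.15 and 0.98 RPKM in WSN. Ascl2, the transcription factor that sets stem cell identity, had 40.0, 49.3 and 63.8 RPKM in PST, against 13.5, 10.53 and 11.2 RPKM in WSN. PST replicate 3 was highest for both. Olfm4, a marker of the same cells in the human and not the mouse colon, was not called. It had 4.25, 369.9 and 8.49 RPKM in PST, against 9.71, 0.10 and 0.03 RPKM in WSN, so 1 tumor held nearly all of it. Prom1, another stem cell marker, fell, with 43.4, 69.2 and 29.6 RPKM in PST, against 107, 70.3 and 120.5 RPKM in WSN. The call of Prom1 was lost without PST replicate 3 or WSN replicate 3 (log2 fold change -0.95 to -0.81, adjusted p up to 0.0785).

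Genes of ribosome production, a main output of Myc, mostly rose. Of these, 26 of 32 tested genes rose and 0 fell, with a median of 1.08. Nucleolin (Ncl) had 134, 191 and 116 RPKM in PST, against 43.4, 48.4 and 49.5 RPKM in WSN, and the nucleolar protein Nop56 had 69.6, 77.7 and 71.9 RPKM in PST, against 28.8, 24.5 and 28.5 RPKM in WSN, a log2 fold change of 1.41 ± 0.15, adjusted p = 8.30e-06. Nolc1 had the largest change of the list, 1.99. In the Myc network itself, 3 of 11 tested genes rose and 3 fell, shares near those of all genes tested. The relative Mycn rose (1.34), while Mxd4 (-0.77), which competes with Myc for its partner, fell with the glucose sensor Mlxipl (-1.56). The call of Mycn was lost without PST replicate 3 (log2 fold change 0.96, adjusted p = 0.0783).

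Of the DNA replication list, 19 of 38 tested genes rose and 0 fell, with a median of 0.85. Of the mitosis list, 17 of 34 tested genes rose and 0 fell, with a median of 1.07. The replicative helicase subunit Mcm7 had 54.1, 52.5 and 52.1 RPKM in PST, against 29.3, 16.5 and 23.9 RPKM in WSN. The proliferation marker Mki67 had 4.90, 6.91 and 2.68 RPKM in PST, against 1.15, 0.48 and 0.72 RPKM in WSN, a log2 fold change of 2.00 ± 0.34, adjusted p = 2.48e-04. The mitotic cyclin Ccna2 had 43.8, 58.2 and 31.9 RPKM in PST, against 18.3, 6.50 and 13.4 RPKM in WSN. WSN replicate 2 was the lowest of the 6 libraries for all 19 and all 17 called genes. The counts of rises depended on single libraries. Without PST replicate 1, PST replicate 2 or WSN replicate 2 they were 12, 8 and 6 for DNA replication and 9, 6 and 6 for mitosis.

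Regulators of the cycle rose in part, in that 11 of 20 tested genes rose and 3 fell. Cyclin D2 (Ccnd2) had 408, 267 and 402 RPKM in PST, against 64.5, 98.4 and 75.9 RPKM in WSN, and cyclin E1 (Ccne1) had 22.7, 12.2 and 18.6 RPKM in PST, against 5.94, 1.22 and 5.74 RPKM in WSN. The inhibitor Cdkn1a also rose, with 413, 283 and 340.3 RPKM in PST, against 101, 154 and 148 RPKM in WSN, while the inhibitor Cdkn2b fell (-1.04). Without PST replicate 1 the list had 1 fall. In the EGF family, 4 of 11 tested genes rose and 0 fell. The receptor Egfr had 7.33, 7.75 and 7.34 RPKM in PST, against 1.72, 3.05 and 2.12 RPKM in WSN, and the ligand Epgn had 8.45, 11.99 and 17.5 RPKM in PST, against 1.30, 2.97 and 0.86 RPKM in WSN. Without PST replicate 1 the rises numbered 2.

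**Figure D3:**
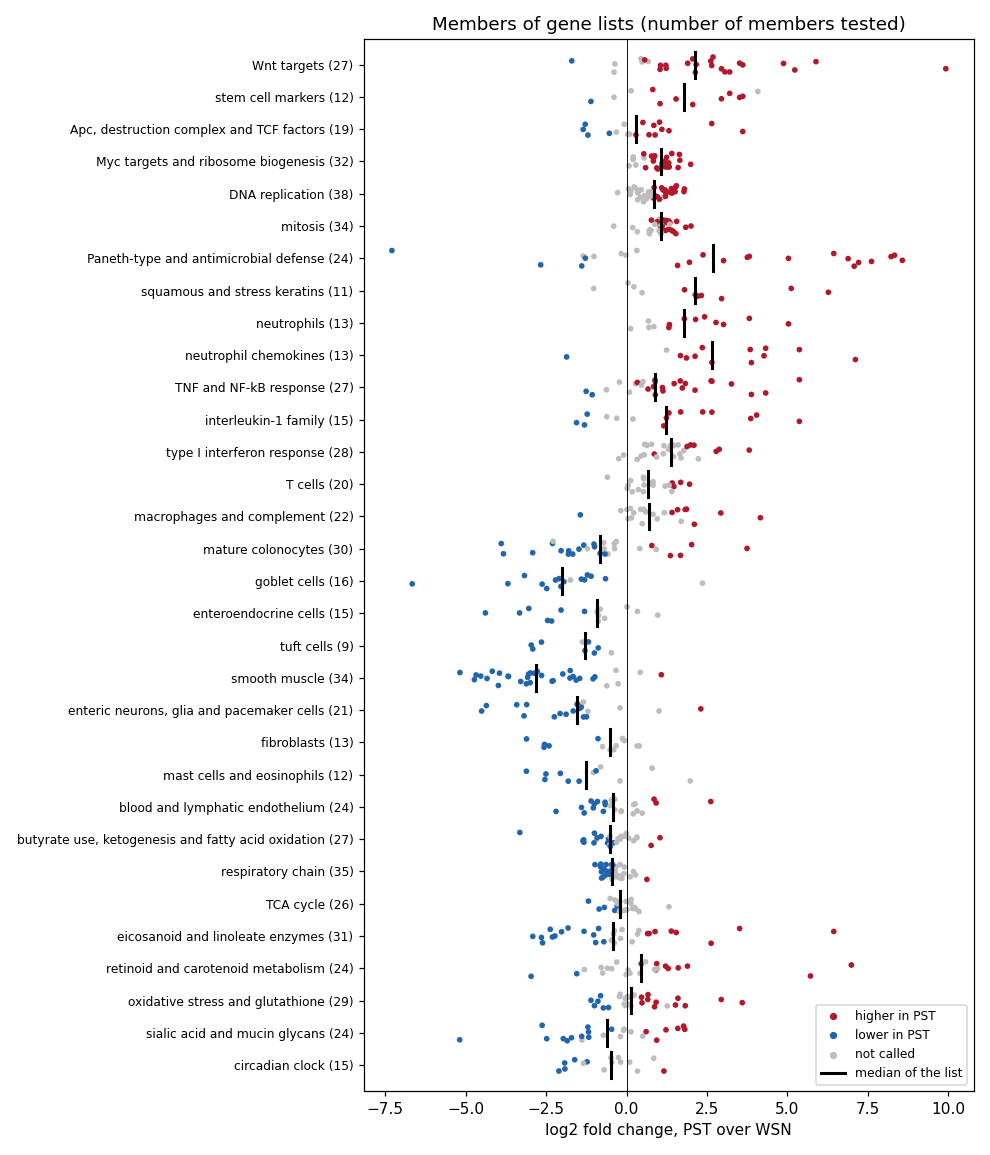
Log2 fold change of PST over WSN (horizontal axis) for every tested member of 32 gene lists (rows, with the number of members tested); red, blue and grey points are members that rose, fell or were not called, and black bars are list medians. Neutrophil chemokines, defense genes, squamous and stress keratins and Wnt targets have medians above 2, and smooth muscle genes have the lowest median, -2.82.

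Paneth-type and antimicrobial genes held some of the largest rises and also falls. Paneth cells are the defensin-secreting cells of small intestinal crypts, and they are normally absent from the distal colon. Of the list, 15 of 24 tested genes rose and 4 fell, with a median of 2.70 and summed levels of 20250.0 to 33150.0 RPKM in PST, against 5695 to 8444 RPKM in WSN. Pla2g2a makes up most of those sums in PST. Defa6 had 375, 2013 and 590.0 RPKM in PST, against 2.40, 5.06 and 0 RPKM in WSN, Defa24 had 543, 2128 and 861 RPKM in PST, against 1.84, 4.38 and 2.11 RPKM in WSN, and Defa8 had 324, 2174 and 717 RPKM in PST, against 2.21, 15.6 and 1.04 RPKM in WSN. PST replicate 2, the lowest tumor for Mmp7 and several Wnt targets, was the highest for the defensins. The family members are near-identical copies whose reads can be shared, so their separate levels are uncertain.

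Enzymes that release reactive oxygen at the epithelial surface rose in the same list. Duox2 had 264, 123 and 141 RPKM in PST, against 43.6, 54.5 and 32.2 RPKM in WSN, and its maturation factor Duoxa2 had 479.9, 237 and 173 RPKM in PST, against 19.96, 35.9 and 10.3 RPKM in WSN. The calcium-binding proteins S100a8 and S100a9, abundant in neutrophils and in stressed epithelium, rose too. S100a9 had 1519.5, 161 and 747 RPKM in PST, against 12.7, 22.9 and 16.4 RPKM in WSN, a log2 fold change of 5.03 ± 0.70, adjusted p = 7.08e-05. The falls were Mptx1, the intelectin Itln1 (308, 757 and 402 RPKM in PST, against 2767, 1960.2 and 4472 RPKM in WSN), the antibody transporter Pigr (761, 1589 and 1115 RPKM in PST, against 3374, 2471 and 2934 RPKM in WSN) and Wfdc2 (-1.28). Nox1, an oxidase of colonic epithelium named here after its values were seen, had 173, 91.2 and 70.3 RPKM in PST, against 2.58, 1.35 and 0.53 RPKM in WSN.

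Of the neutrophil chemokines and the cytokines that induce them, 11 of 13 tested genes rose and 1 fell, with a median of 2.65. The NF-kB site (GGGANTTTCC, either strand, a search added after the values were seen) was found in 0.362% of all promoter windows and in 3 of the 13 genes of this list with an entry, Cxcl1, Cxcl6 and Il6, of which Il6 was too low to be tested. The TNF and NF-kB response list was searched too, and 6 of its 24 genes with an entry held the site. Of these, Cxcl1, Nfkb1 and Nfkbiz rose, Nfkb2 and Nfkbia were not called and Il6 was not tested. Both lists were chosen around this response, so a raised share of sites is no result of these data. A match of letters is no measure of binding. Cxcl1 and Cxcl6 are shown with the match in capitals, on the promoter strand, 5′ to 3′, build GRCr8.
Cxcl1, chr14:17479322-17479431, minus strand: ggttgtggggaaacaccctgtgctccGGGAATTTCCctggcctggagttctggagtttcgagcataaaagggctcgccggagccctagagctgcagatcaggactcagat
Cxcl6, chr14:17596418-17596527, minus strand: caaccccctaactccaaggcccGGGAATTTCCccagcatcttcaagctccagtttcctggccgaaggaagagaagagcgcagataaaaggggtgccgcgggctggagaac

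Cxcl1 draws neutrophils through the receptor Cxcr2, and it had 45.1, 33.9 and 35.8 RPKM in PST, against 0.83, 2.45 and 1.30 RPKM in WSN, a log2 fold change of 4.33 ± 0.53, adjusted p = 2.29e-05. Cxcl6 had 191, 70.0 and 182 RPKM in PST, against 0, 1.15 and 0.62 RPKM in WSN, and Cxcl3 had 8.77, 9.52 and 9.24 RPKM in PST and was listed at 0 in all WSN libraries. The tumors were alike for Cxcl1 and Cxcl3. Interleukin-1α (Il1a) had 87.8, 68.3 and 57.8 RPKM in PST, against 0.99, 0.48 and 2.91 RPKM in WSN, and the IL-6 family cytokine Il11 had 16.9, 18.2 and 11.98 RPKM in PST, against 1.28, 0.33 and 0.43 RPKM in WSN. The exception in the list was the platelet chemokine Pf4, which fell (-1.86). The call of Pf4 was lost without PST replicate 2, WSN replicate 2 or WSN replicate 3 (log2 fold change -1.83 to -1.07, adjusted p up to 0.107).

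Markers of neutrophils stood beside these chemokines. Of the neutrophil markers, 9 of 13 tested genes rose and 0 fell, with summed levels of 242 to 1783 RPKM in PST, against 34.7 to 62.2 RPKM in WSN. S100a9 makes up most of those sums in PST, so they do not measure the amount of neutrophil RNA. The receptor Cxcr2 had 1.47, 2.79 and 2.86 RPKM in PST, against 0, 0 and 0.06 RPKM in WSN, and Csf3r, the G-CSF receptor, had 2.95, 3.82 and 3.78 RPKM in PST, against 0.08, 0.14 and 0.03 RPKM in WSN. Both receptors were at or near 0 in WSN and low in every tumor. Part of the list, S100a8, S100a9 and Lcn2, is also made by epithelium. No tested marker of the list was at 0 in all libraries of a group, and the part of neutrophil RNA in the rises above was not tested.

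In the TNF and NF-kB response, 19 of 27 tested genes rose and 2 fell, with a median of 0.90. Bcl3, a coactivator of NF-kB, had 164, 143 and 119.7 RPKM in PST, against 37.4, 47.9 and 41.6 RPKM in WSN, and the ribonuclease Zc3h12a had 128, 101 and 90.3 RPKM in PST, against 27.2, 33.2 and 28.1 RPKM in WSN, a log2 fold change of 1.83 ± 0.20, adjusted p = 1.16e-05. Ptgs2 (cyclooxygenase 2) had 39.7, 40.5 and 22.1 RPKM in PST, against 4.60, 7.86 and 3.20 RPKM in WSN. The signaling adaptor Traf1 and the adhesion molecule Vcam1 fell, with log2 fold changes of -1.26 and -1.07. The call of Vcam1 was lost without PST replicate 1, WSN replicate 2 or WSN replicate 3 (log2 fold change -0.90 to -0.86, adjusted p up to 0.0639).

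The interleukin-1 family split by member, in that 9 of 15 tested genes rose and 3 fell. The receptor antagonist Il1rn had 101, 140.5 and 172 RPKM in PST, against 8.16, 10.6 and 7.85 RPKM in WSN, and Il1b had 33.1, 27.8 and 41.9 RPKM in PST, against 6.37, 3.75 and 5.05 RPKM in WSN. Il1rl1, the receptor for interleukin-33, had 20.04, 31.2 and 19.0 RPKM in PST, against 0.67, 0.61 and 1.68 RPKM in WSN, while its ligand Il33 fell to 44.0, 30.8 and 40.3 RPKM in PST, against 77.2, 136 and 67.5 RPKM in WSN. Interleukin-18 (Il18), which healthy epithelium makes, had 31.4, 109.9 and 46.8 RPKM in PST, against 116, 212 and 169 RPKM in WSN. The inflammasome adaptor Pycard fell as well (-1.31). The call of Il33 was lost without PST replicate 2 or WSN replicate 2 (log2 fold change -1.08 to -0.92, adjusted p up to 0.0723).

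Among type I interferon response genes, 7 of 28 tested genes rose and 0 fell, with a median of 1.37. The share that rose was near the 24.2% of all genes tested. PST replicate 1 was the highest tumor for all 28. Isg15, a ubiquitin-like protein, had 558, 19.6 and 42.6 RPKM in PST, against 9.98, 13.9 and 7.53 RPKM in WSN, and Ifit3 had 95.4, 7.72 and 12.4 RPKM in PST, against 1.19, 0.91 and 1.03 RPKM in WSN. The other tumors lay much closer to wild-type colon than to PST replicate 1 for Isg15. The call of Isg15 was lost without PST replicate 1, WSN replicate 1 or WSN replicate 3 (log2 fold change 1.47 to 2.87, adjusted p up to 0.1). Without PST replicate 1, 2 or 3 the rises numbered 2, 15 and 11, and without WSN replicate 1, 2 or 3 they numbered 2, 4 and 2. For antigen presentation, 5 of 27 tested genes rose and 1 fell, both under the shares of all genes tested. The rises were the chemokines Cxcl9, Cxcl10 and Cxcl11 and the GTPases Gbp2 and Gbp5. Cxcl10 had 181, 118 and 57.4 RPKM in PST, against 8.41, 5.46 and 22.5 RPKM in WSN. These rises numbered 3 without PST replicate 2, WSN replicate 2 or WSN replicate 3. Of the genes that form or load MHC molecules none passed the test but Tapbp, which fell (-0.81). The call of Tapbp was lost without PST replicate 2, PST replicate 3, WSN replicate 2 or WSN replicate 3 (log2 fold change -0.86 to -0.34, adjusted p up to 0.177), and the call of Cxcl9 was lost without PST replicate 1, PST replicate 2, WSN replicate 2 or WSN replicate 3 (log2 fold change 1.28 to 2.28, adjusted p up to 0.219).

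Markers of other leukocytes moved in smaller numbers. Of the T cell markers, 4 of 20 tested genes rose and 0 fell, with summed levels of 126 to 182 RPKM in PST, against 64.0 to 98.0 RPKM in WSN, and Cd3e, a chain of the T cell receptor complex, had 11.3, 9.76 and 10.2 RPKM in PST, against 2.19, 3.06 and 5.83 RPKM in WSN. The T cell markers that rose were near the share of all genes tested. Without PST replicate 2 or WSN replicate 3 the rises numbered 9 and 7. Among macrophage and complement genes, 7 of 22 tested genes rose and 1 fell (11 rises without WSN replicate 2), and complement C3 had 71.9, 3.72 and 10.2 RPKM in PST, against 0.48, 0.15 and 0.40 RPKM in WSN, highest again in PST replicate 1. Arg1, an enzyme of wound-type macrophages, had 20.3, 23.9 and 56.4 RPKM in PST, against 5.38, 3.60 and 2.20 RPKM in WSN.

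Of the B and plasma cell markers, 3 of 19 tested genes rose and 1 fell, and the falls numbered 3 without PST replicate 2. The rises were Fcer2, Prdm1 and Sdc1, of which Sdc1 is also an epithelial proteoglycan. Sdc1 had 386, 255 and 393 RPKM in PST, against 192, 185 and 221 RPKM in WSN, and the lymph node chemokine Ccl21 fell (-1.10). The call of Ccl21 was lost without PST replicate 1, WSN replicate 2 or WSN replicate 3 (log2 fold change -1.03 to -0.85, adjusted p up to 0.0773). Among mast cell and eosinophil markers, 0 of 12 tested genes rose and 7 fell, with summed levels of 41.9 to 104 RPKM in PST, against 123 to 164 RPKM in WSN. The protease Mcpt2 had 6.45, 5.20 and 9.61 RPKM in PST, against 51.5, 36.4 and 37.9 RPKM in WSN, and the eosinophil chemokine Ccl24 had 1.53, 0.29 and 2.93 RPKM in PST, against 6.87, 26.7 and 17.3 RPKM in WSN. Leaving out PST replicate 2 gave 2 rises in this list. No tested marker of these 4 lists was at 0 in all libraries of a group, and their part in the other results was not tested.

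Genes of squamous epithelium and stress keratins rose in part. Of this list, 7 of 11 tested genes rose and 0 fell, with a median of 2.14. Krt17, a keratin of injured skin, had 5.15, 6.24 and 6.79 RPKM in PST, against 0.46, 0.07 and 0.59 RPKM in WSN. Anxa1, which limits inflammation and marks regenerating intestinal epithelium in the mouse, had 733, 499 and 819.9 RPKM in PST, against 86.9, 209 and 129.5 RPKM in WSN. Krt36, Tgm1 and Prss22 were outside the lists and were named after their values were seen. Krt36, a hair keratin, had 131, 24.2 and 286 RPKM in PST, against 0.61, 1.27 and 0.69 RPKM in WSN, and the cross-linking enzyme Tgm1 had 77.1, 24.1 and 30.3 RPKM in PST, against 0.13, 0.14 and 0.24 RPKM in WSN. The serine protease Prss22 had 45.9, 111 and 28.2 RPKM in PST, against 0.95, 0.40 and 0.32 RPKM in WSN.

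Of the matrix proteases and their inhibitors, 10 of 21 tested genes rose and 2 fell. Macrophage elastase (Mmp12) had 61.6, 95.7 and 48.8 RPKM in PST, against 1.20, 0.66 and 3.69 RPKM in WSN, and the gelatinase Mmp9 had 6.37, 7.51 and 8.36 RPKM in PST, against 0.17, 0.11 and 0.14 RPKM in WSN. The plasminogen activator Plat had 377, 102 and 289.5 RPKM in PST, against 20.3, 32.2 and 22.5 RPKM in WSN, and the urokinase receptor Plaur rose with it (1.67). Among collagens and matrix proteins, 4 of 23 tested genes rose and 6 fell, shares near those of all genes tested. Thbs1 (thrombospondin 1) had 71.2, 88.2 and 95.2 RPKM in PST, against 18.1, 28.3 and 13.7 RPKM in WSN, and the basement membrane collagen Col4a1 had 71.3, 103 and 70.9 RPKM in PST, against 39.9, 56.1 and 32.8 RPKM in WSN. The falls numbered 3 without PST replicate 3 or WSN replicate 2.

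Among fibroblast markers, 0 of 13 tested genes rose and 5 fell. Summed levels were 361, 507 and 515 RPKM in PST, against 484, 1165 and 556 RPKM in WSN. The groups overlapped in these sums, and WSN replicate 2 alone was far above the tumors. Dermatopontin (Dpt) had 13.6, 13.8 and 17.1 RPKM in PST, against 123, 185 and 99.6 RPKM in WSN, a log2 fold change of -3.11 ± 0.22, adjusted p = 4.58e-07. In the BMP, activin and TGF-β family, 9 of 29 tested genes rose and 7 fell, shares near those of all genes tested. Grem1, a BMP antagonist of the muscle layer and crypt base, had 13.9, 6.12 and 5.93 RPKM in PST, against 60.0, 41.5 and 36.1 RPKM in WSN. The activin subunit Inhba had 6.62, 6.69 and 6.82 RPKM in PST, against 0.88, 1.76 and 0.83 RPKM in WSN, and Tgfb1 had 33.3, 45.2 and 37.0 RPKM in PST, against 11.04, 15.1 and 16.7 RPKM in WSN.

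General epithelial markers moved little. Of these, 1 of 14 tested genes rose and 2 fell, with a median of -0.31 and summed levels of 10180.0 to 11990.0 RPKM in PST, against 11970.0 to 13450.0 RPKM in WSN. Epcam, which marks all intestinal epithelium, had 1177, 1384 and 1257 RPKM in PST, against 1357, 1685 and 1716 RPKM in WSN and was not called (adjusted p = 0.0698, limma). E-cadherin (Cdh1) had 566, 619.7 and 641 RPKM in PST, against 476, 566 and 528 RPKM in WSN and was not called (adjusted p = 0.132, limma). Krt8, a keratin of simple epithelium, fell (-1.45). Without WSN replicate 1 the falls in this list numbered 5.

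Goblet cells make the mucus of the colon. For their markers, 0 of 16 tested genes rose and 14 fell, with a median of -1.99 and summed levels of 1107 to 1964 RPKM in PST, against 5358 to 6302 RPKM in WSN. Clca1, a secreted mucus protease, had 173, 60.5 and 37.6 RPKM in PST, against 687, 1237 and 1020.2 RPKM in WSN, and the mucus protein Fcgbp had 35.9, 23.6 and 13.8 RPKM in PST, against 153, 268 and 224 RPKM in WSN. Trefoil factor 3 (Tff3) had 347, 321 and 302 RPKM in PST, against 793, 2692 and 1563 RPKM in WSN. The transcription factor Spdef, which drives goblet maturation, had 40.1, 22.3 and 30.9 RPKM in PST, against 175, 79.8 and 162 RPKM in WSN, a log2 fold change of -2.10 ± 0.37, adjusted p = 4.02e-04. The falls covered secreted products and this factor alike.

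For mature colonocytes, 5 of 30 tested genes rose and 14 fell. The chloride exchanger Slc26a3 had 54.3, 81.2 and 9.74 RPKM in PST, against 199, 332 and 298 RPKM in WSN, the water channel Aqp8 had 4.39, 1.66 and 1.47 RPKM in PST, against 28.6, 37.5 and 61.7 RPKM in WSN, and the guanylin peptide Guca2a had 926, 671 and 471 RPKM in PST, against 2241, 1655 and 3338 RPKM in WSN. Klf4, a factor of terminal differentiation, was tighter, with 23.3, 23.6 and 17.9 RPKM in PST, against 65.0, 87.9 and 78.4 RPKM in WSN and a log2 fold change of -1.81 ± 0.21, adjusted p = 1.43e-05. Rises in this list were Clca4, Ceacam1, Alpl, Sult1b1 and Cyp2s1. Clca4 had 1019.6, 335 and 535 RPKM in PST, against 22.9, 97.5 and 32.6 RPKM in WSN, a change opposite to that of its mucus relative Clca1.

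Enteroendocrine markers fell in part, in that 0 of 15 tested genes rose and 7 fell. Peptide YY (Pyy) had 10.6, 14.4 and 31.6 RPKM in PST, against 251, 78.8 and 147 RPKM in WSN, and somatostatin (Sst) had 0.18, 0 and 0.19 RPKM in PST, against 36.2, 6.54 and 7.84 RPKM in WSN. WSN replicate 1 was the highest library for each. Tuft cells are chemosensory cells of the epithelium, and of their markers, 0 of 9 tested genes rose and 7 fell, with 4 falls without WSN replicate 1. The taste channel Trpm5 had 1.03, 1.60 and 2.21 RPKM in PST, against 23.5, 8.83 and 17.97 RPKM in WSN, and the leukotriene enzyme Alox5 had 1.44, 2.06 and 2.02 RPKM in PST, against 17.7, 12.9 and 12.1 RPKM in WSN.

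Smooth muscle genes had the lowest median of all lists, -2.82, and 1 of 34 tested genes rose and 29 fell. Their summed levels were 776 to 925 RPKM in PST, against 3576 to 12730.0 RPKM in WSN. Of the 29 genes that fell, WSN replicate 1 was the highest wild-type library for 27 and WSN replicate 3 the lowest for 28. Transgelin (Tagln) had 95.9, 81.0 and 64.1 RPKM in PST, against 2403, 1236 and 676 RPKM in WSN, and smooth muscle actin (Acta2) had 41.7, 62.8 and 42.4 RPKM in PST, against 589.9, 345 and 220.2 RPKM in WSN. Desmin (Des), the intermediate filament of muscle, had 46.4, 12.1 and 16.6 RPKM in PST, against 1313, 508 and 284 RPKM in WSN, and the myosin heavy chain Myh11 had 25.9, 17.6 and 11.1 RPKM in PST, against 737, 345 and 179 RPKM in WSN. The exception that rose was Actn1, which non-muscle cells also make (1.08). No tested marker of the list was at 0 in all libraries of a group. WSN was described as mucosa, yet these muscle genes were abundant there. How much muscle each piece held was not stated, and its part in the falls of muscle and neural genes was not tested.

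The CArG box, the site of serum response factor in muscle genes, was found in 1.64% of all promoter windows and in 2 of the 28 smooth muscle genes with an entry, Fhl1 and Ldb3. Both fell, as did 29 of the 34 tested members of the list, so the fall cannot be tied to the site. Their matches are shown in capitals on the promoter strand, 5′ to 3′, build GRCr8. Fhl1, a LIM protein of muscle, had 10.54, 13.4 and 11 RPKM in PST, against 109.95, 119 and 67.4 RPKM in WSN, and Ldb3, a protein of the contractile apparatus, had 0.35, 0.20 and 0.12 RPKM in PST, against 2.43, 1.71 and 0.98 RPKM in WSN.
Fhl1, chrX:139638356-139638435, plus strand: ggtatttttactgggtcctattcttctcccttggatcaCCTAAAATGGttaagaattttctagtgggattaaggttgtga
Ldb3, chr16:9924690-9924769, minus strand: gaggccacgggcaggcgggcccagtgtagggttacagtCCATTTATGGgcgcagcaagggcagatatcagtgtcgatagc

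Most enteric neuron, glial and pacemaker markers also fell, in that 1 of 21 tested genes rose and 15 fell, with summed levels of 50.0 to 61.1 RPKM in PST, against 156 to 225 RPKM in WSN. Vasoactive intestinal peptide (Vip) had 0.32, 0.06 and 0.17 RPKM in PST, against 15.2, 12.1 and 17.8 RPKM in WSN, a log2 fold change of -4.51 ± 0.37, adjusted p = 1.65e-06, and the growth cone protein Gap43 had 0.20, 0.17 and 0.38 RPKM in PST, against 14.1, 6.58 and 4.34 RPKM in WSN. The glial factor Sox10 was listed at 0 in the 3 PST libraries and had 2.72, 0.74 and 1.06 RPKM in WSN. Tac1, which encodes substance P, was the single rise, with 8.53, 0.49 and 8.22 RPKM in PST, against 1.64, 0.10 and 0 RPKM in WSN. The call of Tac1 was lost without PST replicate 1, PST replicate 3, WSN replicate 2 or WSN replicate 3 (log2 fold change 1.77 to 2.05, adjusted p up to 0.132). For blood and lymphatic endothelium, 3 of 24 tested genes rose and 10 fell, with summed levels of 227 to 316 RPKM in PST, against 362 to 430.4 RPKM in WSN, and Plvap, a protein of capillary pores, had 33.3, 39.8 and 51.7 RPKM in PST, against 140.3, 86.7 and 89.2 RPKM in WSN. One of the rises there was Prox1 (2.62), which is also in the Wnt target list, and without WSN replicate 3 the list had 1 rise. The median of the endothelial list was -0.42 for PST over WSN and -0.50 for PSN over WSN. It was -0.09 for PST over PSN and -0.06 for PCT over WCN. In the adipocyte list, 1 of 8 tested genes rose and 1 fell, and Adipoq had 10.3, 13.8 and 23.9 RPKM in PST, against 2.94, 4.35 and 1.84 RPKM in WSN.

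Genes for the use of butyrate, the fuel that bacteria supply to colonocytes, fell in part. Of that list, which includes ketogenesis and fatty acid oxidation, 2 of 27 tested genes rose and 12 fell, with a median of -0.51. The short-chain dehydrogenase Acads had 94.2, 83.5 and 92.3 RPKM in PST, against 277, 172 and 244 RPKM in WSN. The butyrate carrier Slc16a1 fell as well (-1.01), and Acadl, a long-chain dehydrogenase, rose (0.76).

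Respiratory chain genes moved by small amounts. Of these, 1 of 35 tested genes rose and 17 fell, with a median of -0.44, and 10 fell without WSN replicate 3. Cox4i1, a subunit of cytochrome oxidase, had 596, 606 and 816 RPKM in PST, against 1240.5, 1197 and 1530.3 RPKM in WSN, a log2 fold change of -0.98 ± 0.15, adjusted p = 1.25e-04. In the TCA cycle, 0 of 26 tested genes rose and 5 fell, with 2 falls without WSN replicate 3. The share that fell was near the 19.7% of all genes tested. The succinate dehydrogenase subunit Sdhd had 32.9, 21.3 and 31.5 RPKM in PST, against 51.5, 41.9 and 61.9 RPKM in WSN, and Pdk2, a brake on pyruvate entry, had 11.6, 11.1 and 12.3 RPKM in PST, against 28.0, 25.6 and 27.9 RPKM in WSN.

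For glycolysis and hypoxia, 7 of 29 tested genes rose and 4 fell, and the falls numbered 2 without PST replicate 2, WSN replicate 1 or WSN replicate 2. The share that rose was near the 24.2% of all genes tested. The phosphofructokinase Pfkp had 187, 205 and 198 RPKM in PST, against 52.5, 76.9 and 58.2 RPKM in WSN, while the muscle form Pfkm fell (-1.79). The lactate exporter Slc16a3 had 262, 76.2 and 94.7 RPKM in PST, against 12.3, 43.9 and 19.6 RPKM in WSN. Among genes of gluconeogenesis and glutamine, 7 of 19 tested genes rose and 4 fell. Pck1, the committing enzyme of gluconeogenesis, had 51.0, 23.6 and 11.2 RPKM in PST, against 289.6, 334 and 430.1 RPKM in WSN, a log2 fold change of -3.83 ± 0.49, adjusted p = 3.43e-05. Asparagine synthetase (Asns) had 71.7, 38.1 and 46.4 RPKM in PST, against 10.0, 8.42 and 8.94 RPKM in WSN.

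Linoleate and its product arachidonate are cut from membranes by phospholipases and turned into prostaglandins and leukotrienes. Of the eicosanoid and linoleate enzymes, 8 of 31 tested genes rose and 13 fell. The prostaglandin branch moved both ways. Pla2g2a and Ptgs2 rose (values above), while another secreted phospholipase, Pla2g10, fell to 51.4, 62.6 and 81.0 RPKM in PST, against 278, 216 and 295 RPKM in WSN. The prostaglandin E2 receptor Ptger3 had 0.72, 1.07 and 1.66 RPKM in PST, against 8.56, 12.6 and 7.45 RPKM in WSN, and the enzyme that breaks prostaglandins down, Hpgd, had 41.2, 119 and 43.2 RPKM in PST, against 245, 306 and 347 RPKM in WSN. In the leukotriene branch Alox5ap had 3.30, 3.76 and 9.17 RPKM in PST, against 23.4, 23.7 and 27.3 RPKM in WSN and Ltc4s had 0.12, 1.69 and 1.14 RPKM in PST, against 14.9, 8.20 and 6.65 RPKM in WSN. The 12-lipoxygenase Alox12 moved the other way, with 19.3, 26.6 and 35.6 RPKM in PST, against 2.34, 1.40 and 1.90 RPKM in WSN, and the desaturase Fads2, which acts on linoleate, rose (1.39). Among sterol and fatty acid synthesis genes, 9 of 24 tested genes rose and 2 fell, with 0 falls without WSN replicate 2. The desaturase Scd2 had 493, 407 and 437 RPKM in PST, against 202, 80.5 and 147 RPKM in WSN.

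Spinach supplies carotenoids, the precursors of retinal and retinoic acid. Of the retinoid and carotenoid genes, 9 of 24 tested genes rose and 2 fell. The receptor Stra6, which imports retinol, had 91.5, 11.5 and 71.4 RPKM in PST, against 0.26, 0.23 and 0.48 RPKM in WSN, a log2 fold change of 5.72 ± 0.71, adjusted p = 2.45e-05. Aldh1a1, an enzyme of retinoic acid synthesis, fell to 2.24, 2.90 and 5.54 RPKM in PST, against 23.1, 78.5 and 13.96 RPKM in WSN, whereas its relatives Aldh1a2 and Aldh1a3 rose (1.61 and 6.99).

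Among oxidative stress and glutathione genes, 11 of 29 tested genes rose and 6 fell, with 3 falls without WSN replicate 2. Gpx2, the glutathione peroxidase of crypt epithelium, had 1807, 1532 and 1325 RPKM in PST, against 168, 112 and 109 RPKM in WSN, while Gpx1 fell (-0.81). Heme oxygenase 1 (Hmox1) had 106, 101 and 44.2 RPKM in PST, against 6.16, 16.2 and 9.05 RPKM in WSN, and thioredoxin reductase Txnrd1 had 467, 318 and 274 RPKM in PST, against 94.3, 101 and 95.3 RPKM in WSN. The groups did not overlap for Gpx2, Hmox1 or Txnrd1. In xenobiotic metabolism, 4 of 29 tested genes rose and 11 fell. The sulfotransferase Sult1a1 had 2.49, 2.27 and 2.28 RPKM in PST, against 10.8, 14.5 and 13.5 RPKM in WSN, and the pregnane receptor Nr1i2 fell (-0.96).

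For sialic acid and mucin glycan genes, 6 of 24 tested genes rose and 11 fell. Beside Cmah, the sialyltransferase St6galnac1, which caps mucin chains, had 53.9, 68.3 and 63.2 RPKM in PST, against 314, 326 and 406 RPKM in WSN, and Gne, which starts sialic acid synthesis, had 182, 259.5 and 272 RPKM in PST, against 499.9, 526 and 574 RPKM in WSN. St3gal4 rose, with 57.5, 32.1 and 62.9 RPKM in PST, against 8.72, 18.3 and 15.5 RPKM in WSN. Of the zinc and manganese carriers, 8 of 19 tested genes rose and 4 fell, with 2 falls without PST replicate 1, PST replicate 3 or WSN replicate 3. The zinc importer Slc39a10 had 33.2, 38.8 and 39.5 RPKM in PST, against 3.72, 3.19 and 3.20 RPKM in WSN, and the manganese exporter Slc30a10 had 0.51, 0.22 and 0.48 RPKM in PST, against 2.91, 12.2 and 5.30 RPKM in WSN.

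Of the tight junction genes, 6 of 20 tested genes rose and 4 fell, shares near those of all genes tested. The rises numbered 3 without WSN replicate 1 or WSN replicate 3, and the falls numbered 2 without WSN replicate 2. Cingulin-like 1 (Cgnl1) had 28.1, 13.8 and 19.2 RPKM in PST, against 8.29, 6.10 and 7.53 RPKM in WSN. In the circadian clock list, 1 of 15 tested genes rose and 5 fell. Npas2, a paralog of the clock activator Clock, had 12.7, 16.5 and 16.5 RPKM in PST, against 65.9, 69.9 and 64.1 RPKM in WSN, and Cry2, a clock repressor, had 7.59, 5.05 and 9.08 RPKM in PST, against 27.5, 29.1 and 27.4 RPKM in WSN. The falls numbered 3 without PST replicate 2 or 3 and 2 without WSN replicate 2 or 3. The hour of tissue collection was not stated.

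Few immediate early or positional genes passed the test. Of the immediate early genes, 2 of 23 tested genes rose and 2 fell, and Fosl1, an AP-1 subunit, had 24.2, 53.8 and 24.0 RPKM in PST, against 2.32, 2.11 and 1.74 RPKM in WSN. Of the Hox and other genes that mark position along the colon, 1 of 13 tested genes rose and 1 fell, and Hoxb9, a homeobox factor, had 106, 95.2 and 78.3 RPKM in PST, against 63.9, 43.8 and 59.0 RPKM in WSN. Of the genes that the study names, 8 of 19 tested genes rose and 10 fell, and they are no independent evidence of direction because they were chosen on these samples. Itga6, a laminin receptor of the crypt base, had 198, 285 and 237 RPKM in PST, against 90.1, 94.6 and 90.4 RPKM in WSN, and Plcd1, a phospholipase C, had 9.16, 10.8 and 7.82 RPKM in PST, against 37.7, 51.2 and 50.5 RPKM in WSN.

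Normal-looking colon of the spinach-fed Pirc rats was next set against WSN, which separates the genotype from the tumor in part. No gene was called between PSN and WSN (0.0%, limma, smallest adjusted p = 0.505), and 937 genes (8.12%) had an unadjusted p under 0.05. Log2 fold changes averaged 0.23 in size for PSN over WSN and 0.693 for PST over WSN. Between PST and PSN, 4886 genes (42.3%) were called. PSN and PST come from the same rats, and with equal numbers taken as 1 rat, 5359 were called with the rat as a random block in the 18 libraries and 3305 with the rat as a block in these 6 alone (both chosen after seeing the data). That comparison and the main one share the PST libraries. The median of the Wnt targets was -0.06 for PSN over WSN and 2.22 for PST over PSN, and that of the smooth muscle genes -0.29 and -2.51. For the fibroblast markers the medians were -0.31 and -0.20, and for endothelium -0.50 and -0.09. Axin2 had 9.53, 7.78 and 7.79 RPKM in PSN, Tagln had 1237, 818 and 1121 RPKM and Cmah had 84.8, 39.9 and 67.8 RPKM. Cmah was low in normal-looking Pirc colon on control diet, with 11.8, 5.32 and 1.75 RPKM in PCN, against 78.2, 58.5 and 69.6 RPKM in WCN. The difference between PCN and WCN was not tested. Mmp7 had 7.5, 1.30 and 10.3 RPKM in PSN, each above the 3 WSN libraries, and a log2 fold change of 2.85 ± 1.04 (PSN over WSN, adjusted p = 0.575, limma). Mptx1 had 85.3, 35.3 and 8.56 RPKM in PSN, a log2 fold change of -3.36 ± 1.39 (PSN over WSN, adjusted p = 0.588, limma).

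**Figure D4:**
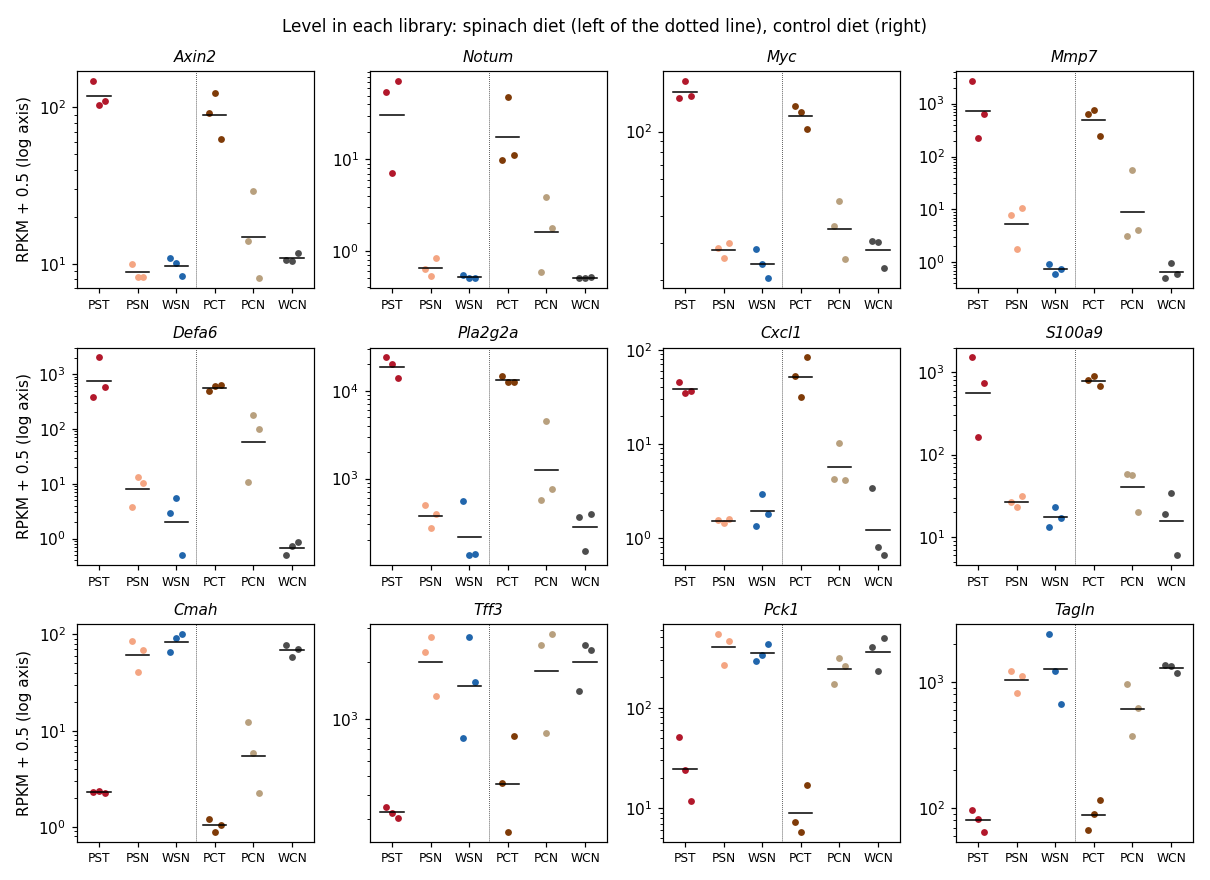
Level of 12 genes in each of the 18 libraries, as RPKM + 0.5 on a log axis, in the order PST, PSN, WSN (spinach diet) and PCT, PCN, WCN (control diet); points are libraries and black lines are means on the log scale. Tumors of both diets stand apart from wild-type colon for each gene, for example 148, 103 and 109 RPKM of Axin2 in PST and 92.0, 124 and 62.4 RPKM in PCT.

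The same comparison on control diet, PCT against WCN, shares no library with PST and WSN. It called 4549 genes (39.4%), of which 2880 rose and 1669 fell, or 2134 and 2234 under median-of-ratios scaling. Of the 4549, 3520 were also called between PST and WSN, all in the same direction, which is 69.4% of the PST and WSN calls and 77.4% of the PCT and WCN calls. Across the 11544 genes the log2 fold changes of the 2 diets had a Pearson r of 0.897, as a description, since genes are not independent replicates. Among the genes called between PST and WSN, 87 had the opposite sign between PCT and WCN.

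No gene was called for the difference between diets, (PST over WSN) minus (PCT over WCN) (0.0%, limma, smallest adjusted p = 0.822), and 637 genes (5.52%) had an unadjusted p under 0.05. A test that misses its threshold does not show equal responses, so intervals are given for the leading genes. For Axin2 the difference was 0.57, with a 95% interval of -0.45 to 1.58. For Mmp7 it was 0.38 (-2.76 to 3.51), and for Defa6 it was -1.13 (-4.13 to 1.86). The intervals of Mmp7 and Defa6 are wide and leave room for a several-fold difference in either direction. For Tagln the difference was -0.11 (-1.28 to 1.05). For Myc, whose libraries agree closely, it was 0.59 (0.0015 to 1.17), and for Pck1 it was 1.51 (0.03 to 2.99). The intervals of Myc and Pck1 lie just above 0, but they are not adjusted for the number of genes. The adjusted p was 0.822 for each of these 2 genes (limma).

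**Figure D5:**
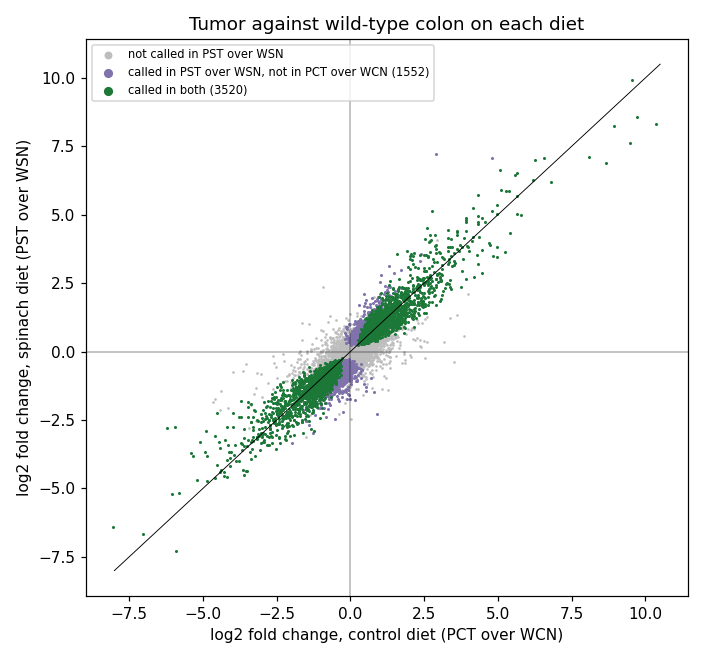
Log2 fold change on spinach diet (PST over WSN, vertical axis) against that on control diet (PCT over WCN, horizontal axis) for 11544 genes; green points were called in both comparisons (3520), purple points in PST over WSN alone (1552) and grey points were not called in PST over WSN. The points follow the line of equal change (Pearson r 0.897 across genes).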

How the data were processed

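RNA was extracted from frozen colonic tissue, and poly(A)-selected, directional libraries were sequenced in pairs of 75 bases. The authors deposited RPKM values for 17378 entries and 18 libraries (Bowtie2 and DESeq2 stand in the submitters' processing notes, and the genome build is not given in the sources used here). RPKM values are not counts, so no count model was run. Names turned into dates (26 entries) were left out, and 2707 genes were 0 in every library.

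One limma 3.58.1 fit (R 4.3.3, statmod 1.5.0, trend and robust moderation) of log2(RPKM + 0.5) covered 18 libraries, 6 group means and 12 residual degrees of freedom, for the 11544 genes that reached 1 RPKM in 3 or more libraries. Fold changes on this scale understate those of low genes. The threshold was 0.05 after Benjamini-Hochberg adjustment across the 11544 genes, without a replicate block, because equal numbers in PST and WSN mark different rats. PSN and PST were matched by rat per the legend of the study, and deviations of same-numbered PSN and PST libraries correlated at 0.128, -0.05 and 0.022. An exact permutation test of 3 against 3 cannot go below p = 0.1.

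The comparison, its genes and the gene lists were chosen with earlier results of these data known. Named genes were the 15 largest rises and 15 largest falls (mean of at least 5 RPKM, no overlap), up to 6 called members of a list by smallest adjusted p, genes the study names, and up to 5 genes in each direction called between diets, of which there were none. Other list members named, and Nox1, Krt36, Tgm1, Prss22, Epcam and Cdh1, were chosen after their values were seen. The fit was tested on simulated data. Alternatives changed the pseudocount, filter, scaling, moderation, weights, block, threshold and libraries. Promoter sequences are RefSeq's (GRCr8), and 11823 of the table's symbols matched. Tables and figures used Python 3.11.15 with pandas 2.3.3, numpy 2.4.6, matplotlib 3.10.9 and scipy 1.17.1. Small RNA libraries were not used here, and a few genes that meet the naming rule are not reported here.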

Additional observations from a re-analysis of the deposited data

Results flagged for a closer look

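Among genes called between PST and WSN, 4 had tumor libraries on opposite sides of the wild-type libraries on the 2 diets. Every tumor library lay above its wild-type libraries on 1 diet and below them on the other. On control diet none was called (PCT over WCN, adjusted p = 0.456 for Capzb, 0.205 for Egfl7, 0.208 for Hnrnpk and 0.236 for Tnip2, limma). These 4 genes were found by searching all called genes, and how many such cases arise by chance was not tested. None passed the test of the difference between diets (adjusted p = 0.822 for each, limma). Capzb, a protein that caps actin filaments, had 272, 499 and 310.1 RPKM in PST, against 263, 225 and 269.5 RPKM in WSN, and 261, 236 and 246 RPKM in PCT, against 282, 277 and 280.2 RPKM in WCN. Its difference between diets was 0.64 on the log2 scale. Egfl7, a secreted protein of endothelium, had 17.9, 9.12 and 20.2 RPKM in PST, against 24.1, 21.1 and 27.4 RPKM in WSN, and 25.6, 21.8 and 26.2 RPKM in PCT, against 19.2, 17.2 and 18.7 RPKM in WCN, a difference of -1.08. Hnrnpk, an RNA-binding protein, had 17.2, 13.4 and 24.6 RPKM in PST, against 26.7, 26.2 and 29.4 RPKM in WSN, and 25, 26.7 and 24.8 RPKM in PCT, against 20.7, 22.9 and 20.1 RPKM in WCN, a difference of -0.86. Tnip2, an inhibitor of NF-kB signaling, had 16.7, 10.9 and 16.0 RPKM in PST, against 19.4, 23.2 and 21.4 RPKM in WSN, and 20.9, 20.5 and 18.2 RPKM in PCT, against 14.8, 18.02 and 18.1 RPKM in WCN, a difference of -0.78. PST replicate 2 was the extreme tumor for all 4.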

How the results depend on the processing

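Of the 5072 genes called between PST and WSN, a fit of those 6 libraries alone called 3375, of which 3322 were shared, a log2 fold change of at least 1 left 2294 and an adjusted p under 0.01 left 3250. Leaving out 1 library called 4253 to 4711. The other alternatives gave 4357 to 5256 calls, and in every alternative the shared calls kept their direction. Rises made up 55.1% of calls, and 50.2% under median-of-ratios scaling. With the replicate number as a block, 5115 genes were called. Same-numbered PST and WSN libraries did not deviate together (r = -0.029, -0.129 and -0.031), and no PST library was closest to its own number. For the difference between diets, leaving out PCT replicate 3 called 1 gene, and leaving out any other library or taking any other alternative called 0. Between PCT and WCN (4549 calls) the stricter fold left 1998, the stricter p 2852, and leaving out 1 library called 3493 to 4135. The cause of these changes was not tested.

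Of 348 named genes, 295 kept their side of the threshold in every alternative fit that held them, and no called gene changed direction. The stricter fold and the stricter p were applied to the gene counts and not to single genes. Depth was known only in relative terms, so the limits of detection of genes listed at 0 cannot be given, and 3 libraries in each group cannot show small differences of variable genes such as Reg3b.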
